A study of Mus musculus with 16 samples.

Results

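Klf2, Klf3, Klf4, Klf6, Klf7, Klf9, Klf10 and Klf13 were followed as a group of 8 genes of the Kruppel-like factor (KLF) family in mouse bone marrow-derived macrophages (BMDM). They were taken by symbol from a table of 9614 genes, in which all 8 were measured and which holds 10 Klf genes in all. RNA-seq covered 16 libraries from 6 male C57BL/6 mice aged 8 weeks, all carrying LysM-Cre, a Cre recombinase driven from the lysozyme locus in myeloid cells. WT macrophages were LysM-Cre:NELF-B wt/wt, and KO macrophages were LysM-Cre:NELF-B fl/fl, in which Cre removes exon 4 of Nelfb, a subunit of the NELF complex that holds RNA polymerase II paused. Cells were untreated (2 WT and 2 KO mice), given the bacterial endotoxin LPS at 10 ng/ml (3 and 3) or given LPS with 100 nM dexamethasone (Dex), a synthetic glucocorticoid (3 and 3), for 1 h. Mice are named by genotype and the number in the labels. Each gave 1 library per treatment, and mouse WT-187 and mouse KO-186 had no untreated library. The study asked how the glucocorticoid receptor lowers LPS-induced genes and what NELF contributes, and for the KLF genes the comparisons were LPS against untreated, LPS+Dex against LPS in the same mouse, and KO against WT.

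KLF proteins are transcription factors with a C-terminal array of zinc fingers that bind GC boxes and CACCC boxes in promoters, and the parts outside the fingers decide whether a member activates or represses. Klf2, Klf4, Klf6 and Klf7 act mostly as activators, Klf3 represses through the corepressor CtBP, and Klf9, Klf10 and Klf13 are known for repression through the corepressor SIN3A. In macrophages Klf2 is known to restrain inflammatory genes, Klf4 to support monocyte differentiation and alternative activation, and Klf6 to cooperate with NF-kB at inflammatory genes. Klf9 is a long-known target of the glucocorticoid receptor, and Klf10 was first described as an early gene of TGF-beta signaling.

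The 8 genes lie on 8 different chromosomes. In the GENCODE annotation of the GRCm38 build they are all protein coding, at chr8:72319033-72321656 (Klf2, plus strand), chr5:64803388-64832901 (Klf3, plus), chr4:55527143-55532466 (Klf4, minus), chr13:5861482-5870394 (Klf6, plus), chr1:64029447-64122282 (Klf7, minus), chr19:23141226-23168134 (Klf9, plus), chr15:38291463-38300706 (Klf10, minus) and chr7:63886351-63938915 (Klf13, minus). Klf2 is the shortest, with 2624 bases and 3 exons, and Klf7 the longest, with 92836 bases and 4 exons in its longest transcript. Their longest annotated 3′ UTRs ran from 737 bases in Klf2 to 6266 bases in Klf7. The pentamer ATTTA, the core of AU-rich elements that shorten the life of an mRNA, was found in the 3′ UTR of all 8, from 1 copy in Klf2 and in Klf4 to 18 in Klf7. It was present in 71.1% of the 9121 genes of the table with an annotated 3′ UTR, whose median length was 1206 bases. The longer form TTATTTATT was found in 0 of the 8 and in 8.4% of those genes.

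Promoter sequences, from 250 bases before to 50 after the annotated start, were found in RefSeq (GRCm38.p6) for 7 of the 8, all but Klf10. Those of the 4 members that rose with Dex and of Klf6 and Klf7, which were lower with it, are shown so that the promoters of genes that moved together can be compared. They lie at chr8:72318812-72319111 (Klf2, plus strand), chr4:55532426-55532725 (Klf4, minus), chr19:23140976-23141275 (Klf9, plus), chr7:63938866-63939165 (Klf13, minus), chr13:5861239-5861538 (Klf6, plus) and chr1:64121340-64121639 (Klf7, minus). Each is written 5′ to 3′ on the strand of the gene, and capitals mark matches on either strand to the GC box GGGCGG, the CACCC box CACCC, the AP-1 motif TGANTCA and the MEF2 motif, with overlapping matches run together.
Klf2: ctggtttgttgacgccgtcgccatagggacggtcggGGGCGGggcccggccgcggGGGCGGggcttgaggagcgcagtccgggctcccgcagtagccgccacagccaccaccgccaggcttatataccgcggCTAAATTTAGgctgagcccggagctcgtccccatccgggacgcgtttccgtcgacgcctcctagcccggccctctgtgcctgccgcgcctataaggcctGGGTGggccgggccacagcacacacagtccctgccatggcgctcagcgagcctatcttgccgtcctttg
Klf4: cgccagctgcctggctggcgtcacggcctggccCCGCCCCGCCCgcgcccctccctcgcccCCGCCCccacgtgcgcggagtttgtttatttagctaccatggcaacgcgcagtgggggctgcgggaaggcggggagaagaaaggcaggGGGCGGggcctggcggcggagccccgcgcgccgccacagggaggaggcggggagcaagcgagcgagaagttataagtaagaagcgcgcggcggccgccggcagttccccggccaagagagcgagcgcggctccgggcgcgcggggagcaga
Klf9: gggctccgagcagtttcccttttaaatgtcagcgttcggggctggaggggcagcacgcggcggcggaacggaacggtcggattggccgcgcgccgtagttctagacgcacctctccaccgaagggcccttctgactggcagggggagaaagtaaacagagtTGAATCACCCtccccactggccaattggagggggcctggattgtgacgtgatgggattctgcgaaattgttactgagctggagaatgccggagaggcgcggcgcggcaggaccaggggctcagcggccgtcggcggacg
Klf13: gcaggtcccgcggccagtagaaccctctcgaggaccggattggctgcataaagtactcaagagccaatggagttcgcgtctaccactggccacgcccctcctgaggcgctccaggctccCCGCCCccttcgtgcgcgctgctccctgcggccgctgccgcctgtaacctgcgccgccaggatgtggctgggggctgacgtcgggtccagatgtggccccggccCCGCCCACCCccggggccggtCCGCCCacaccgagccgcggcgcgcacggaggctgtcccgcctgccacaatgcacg
Klf6: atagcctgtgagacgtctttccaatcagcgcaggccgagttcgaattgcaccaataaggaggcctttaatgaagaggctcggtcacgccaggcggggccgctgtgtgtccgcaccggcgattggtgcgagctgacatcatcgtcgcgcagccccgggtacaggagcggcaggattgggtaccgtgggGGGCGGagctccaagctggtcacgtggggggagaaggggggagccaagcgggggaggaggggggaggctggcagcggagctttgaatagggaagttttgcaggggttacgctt
Klf7: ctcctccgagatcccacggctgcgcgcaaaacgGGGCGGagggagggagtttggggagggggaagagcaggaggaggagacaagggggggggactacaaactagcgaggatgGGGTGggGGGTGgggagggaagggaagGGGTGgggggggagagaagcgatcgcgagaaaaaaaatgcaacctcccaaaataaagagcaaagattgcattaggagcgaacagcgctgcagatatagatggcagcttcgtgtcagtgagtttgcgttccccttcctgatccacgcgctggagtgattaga

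The windows were searched for the binding motifs of the family itself. A GC box was found in 6 of the 7 promoters, against 35.7% of all 32851 mouse promoters of the same length. A CACCC box was found in 5 of the 7, near the background of 57.5%. The 7 windows were 58.3% to 76.7% GC and the background was not matched for it, so neither count sets the family apart. The Klf3 promoter held the most, with 6 GC boxes and 5 CACCC boxes. The Klf2 promoter was the only one of the 7 with a match to the motif of MEF2, the factor through which the kinase ERK5 is known to induce Klf2, beginning 118 bases before the start (1.9% of all promoters). The Klf9 promoter was the only one with a match to TGANTCA, the AP-1 motif written with any base at N (7.8% of all promoters). The matched letters were TGAATCA, 89 bases before the start and overlapping its CACCC box. Matches to the full glucocorticoid response element (0.1% of all promoters), the NF-kB motif (4.5%) and the CArG box of serum response factor (1.6%) were found in 0 of the 7 windows. That covers only these letters in these 300 bases.

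The effective depth of each library was chosen so that values under 3 CPM (counts per 1000000 reads) lay near whole numbers of reads. At the chosen depths, 22050000 to 45936000 reads, 100.0% of these values lay within 0.15 of a whole number, which is no separate check. The lowest member value, Klf9 in the untreated library of mouse WT-198, stood for 28 reads. Nelfb was 4.31-fold lower in KO than in WT untreated cells, 4.04-fold lower with LPS and 4.01-fold lower with LPS+Dex, with no overlap. Tnf rose 62.5-fold with LPS in WT (42.5-fold without the untreated library of mouse WT-198) and 66.6-fold in KO, and Tsc22d3, a glucocorticoid-induced gene, rose 13.9-fold and 14.1-fold with Dex. Of the macrophage markers, 6 of 7 were measured at a summed level of 5538 to 7312 CPM. Lyz2, the lysozyme gene that carries the Cre insertion, was at 4.30 to 5.30 log2 CPM in WT and 5.38 to 6.33 in KO. Markers of other cells were low beside the macrophage sum: S100a8, the 1 of 7 neutrophil markers measured, summed to 5.46 to 41.5 CPM, 2 of 3 monocyte markers to 5.55 to 10.1 CPM, 3 of 4 stroma markers to 33.5 to 115 CPM and 1 of 3 endothelial markers to 15.8 to 74.0 CPM. They were not low beside every member: Klf9 was at 1.298 to 19.3 CPM and Klf4 at 3.34 to 37.3 CPM. The share of each member's RNA that came from other cells was not tested. The lists for dendritic, T, B, mast and erythroid cells had 0 genes measured. In bulk RNA, fewer cells of a type and less RNA per cell cannot be told apart. The untreated library of mouse WT-198 stood apart, with a Pearson correlation of 0.830 to 0.909 with the other 15 across genes. Its difference from the other WT untreated library, of mouse WT-112, correlated with transcript length across 9140 genes (r = -0.60): the median difference was 1.26 on the log2 scale for the 429 genes with a longest transcript under 1000 bases and -0.75 for the 1978 over 5000 bases. Between the 2 untreated KO libraries that correlation was 0.02. The LPS change of each member in WT is therefore also given without this library.

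Per kilobase of longest transcript, the KLF genes spanned a wide range of levels, and Klf6 was by far the most abundant. In untreated KO cells the mean level was 69.4 CPM per kilobase for Klf6, 23.0 for Klf13, 22.4 for Klf10, 8.49 for Klf3, 4.97 for Klf2, 2.52 for Klf7, 2.30 for Klf4 and 0.675 for Klf9 (n = 2). The ranges of Klf13 and Klf10 overlapped, as did those of Klf7 and Klf4, so neither pair can be ordered. In untreated WT cells the order was led by the same 3 genes, at 62.8, 21.0 and 16.3 CPM per kilobase. With LPS+Dex in WT, Klf6 was at 246, Klf13 at 26.9 and Klf2 at 25.5 CPM per kilobase (n = 3). Klf2 had by then moved beside Klf13, and their ranges overlapped (16.6 to 38.9 and 25.03 to 29.4). Klf9 remained the lowest, at 3.01 CPM per kilobase, next to Klf7 at 3.93, whose range of 3.36 to 4.21 overlapped the 2.16 to 3.57 of Klf9.

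**Figure D1:**
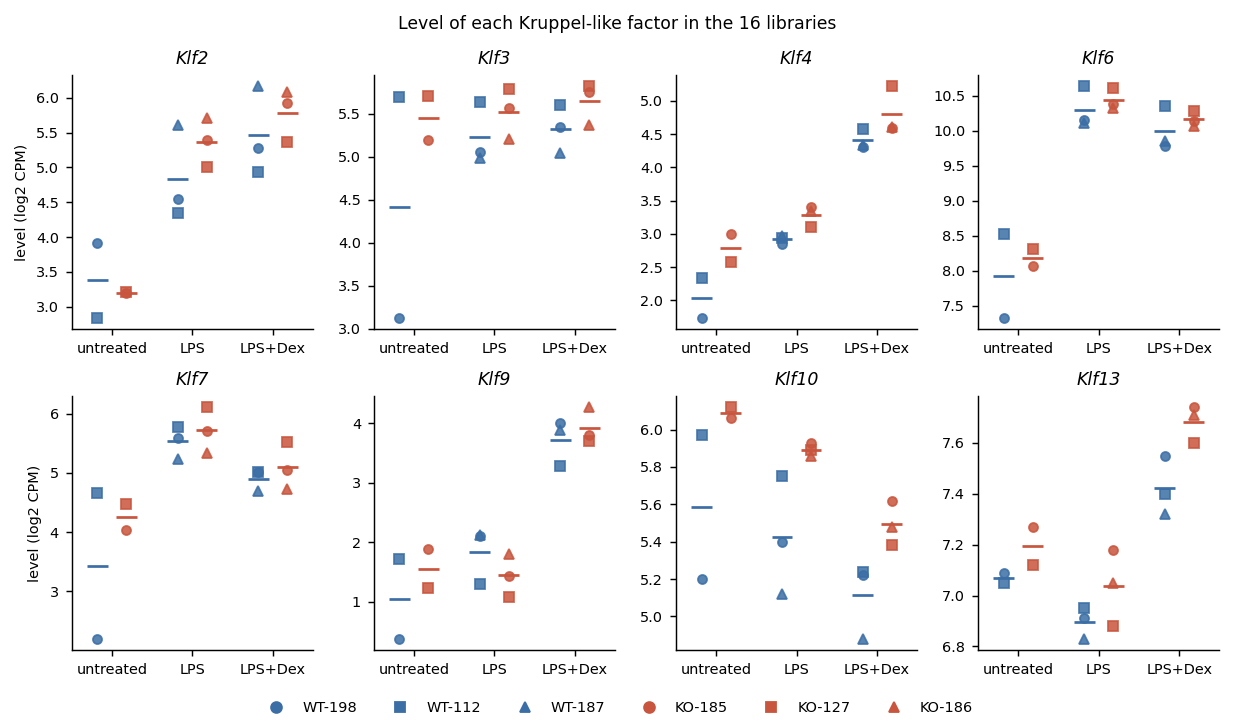
Level of each KLF gene in log2 CPM (vertical axis, own scale in each panel) by treatment, 1 point per library, shaped by mouse, blue for WT and red for KO, with the group mean as a bar. Klf6 climbs from 7.33 to 8.53 in untreated cells to above 10 with LPS, Klf9 and Klf4 climb with LPS+Dex, and the untreated point of mouse WT-198 lies far below that of mouse WT-112 for Klf3 and Klf7.

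LPS raised 4 of the 8 members in WT and 2 in KO, and lowered none of them past the test. In WT, Klf6, Klf7, Klf2 and Klf4 rose, which is 4 of 8 members against 6.01% of all 9614 genes called higher, and 0 of 8 fell, against 3.14% called lower. In KO, Klf6 and Klf2 rose, 2 of 8 against 3.08%, and 0 fell, against 1.24%. Without the untreated library of mouse WT-198, Klf6 and Klf2 were the 2 members called in WT, against 3.09% of all genes called higher. With a replicate block for the mouse, 4 were called in WT, against 11.8% called higher, and 3 in KO, against 4.04%. A call here is an FDR under 0.1 and a change over 1.5-fold in limma, with all 16 libraries in the fit and, apart from the replicate block, no term for the mouse. Without that term, the standard errors and p-values of the LPS changes treat libraries of the same mouse as independent. The median change of the 8 members was 0.85 on the log2 scale in WT and 0.29 in KO, beside 0.02 and -0.01 over all genes, and the WT median was 0.35 without the untreated library of mouse WT-198, beside 0.02. The untreated and LPS groups did not overlap for 5 of 8 members in each genotype, against 25.5% of all genes in WT and 25.8% in KO. The 8 were chosen with earlier results of these data known, so these shares describe the 8 and do not test the family. Of the other 2 Klf genes of the table, Klf11 fell with LPS in KO, and Klf16 was called in neither genotype. With each library centered on its median gene instead, the calls over all genes in WT went from 578 higher and 302 lower to 481 and 536, and the members called were the same 4 in WT and the same 2 in KO.

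Klf6 had the largest estimated change of the 8 in both genotypes, an order that turned with single libraries left out. Its level was 161 and 370 CPM in the untreated WT libraries (mice WT-198 and WT-112) and 1105, 1148 and 1598 CPM with LPS (mice WT-187, WT-198 and WT-112). In KO it went from 268 and 318 CPM (mice KO-185 and KO-127) to 1275, 1330 and 1575 CPM (mice KO-186, KO-185 and KO-127). Every LPS library was above every untreated one in both genotypes. The rise was 5.19-fold in WT (2.37 ± 0.29 SE on the log2 scale, adjusted p = 1.34e-04) and 4.75-fold in KO (2.25 ± 0.29, adjusted p = 2.26e-04), and without the untreated library of mouse WT-198 it was 1.77 ± 0.25 (adjusted p = 8.00e-04). There Klf2 was larger, at 1.99, and without the untreated library of mouse WT-112 Klf7 was larger, at 3.33 against 2.97 for Klf6. In KO Klf2 was larger without the untreated library of mouse KO-185 (2.16 against 2.12) or the LPS library of mouse KO-127 (2.36 against 2.16). Klf6 ranked 105 from the top of 9614 genes by its LPS change in WT, and 149 without the untreated library of mouse WT-198.

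Klf7, a factor best known from neurons and fat cells, followed Klf6 at a far lower level. It was at 4.61 and 25.2 CPM in untreated WT cells and at 37.8, 48.0 and 54.4 CPM with LPS, and at 16.4 and 22.3 CPM in untreated KO cells and 40.4, 52.4 and 69.3 CPM with LPS. The groups did not overlap in either genotype, but the lowest value, 4.61 CPM, came from mouse WT-198. The rise in WT was 4.29-fold (2.10 ± 0.51, adjusted p = 0.0254), and without that library it was 0.88 ± 0.33 and no longer passed (adjusted p = 0.262). In KO it was 2.76-fold (1.47 ± 0.51, adjusted p = 0.215), which did not pass. In a fit with a replicate block for the mouse, the KO change of Klf7 was 1.65 ± 0.45 and passed (adjusted p = 0.0700). In the mice with both libraries it was higher with LPS in 2 of 2 WT and 2 of 2 KO.

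Klf2 rose with LPS in both genotypes. It was at 14.99 and 7.16 CPM in untreated WT cells and at 48.7, 23.4 and 20.4 CPM with LPS (mice WT-187, WT-198 and WT-112), and at 9.12 and 9.22 CPM in untreated KO cells and 52.5, 42.2 and 31.9 CPM with LPS. No LPS library was as low as an untreated one of its genotype, although mouse WT-187 lay well above the other two. The rise was 2.75-fold in WT (1.46 ± 0.44, adjusted p = 0.0645) and 4.51-fold in KO (2.17 ± 0.44, adjusted p = 0.00884). The WT call was near the threshold: it was lost without the untreated library of mouse WT-112 (0.93 ± 0.51, adjusted p = 0.143) and without the LPS library of mouse WT-187 (1.08 ± 0.41, adjusted p = 0.170) or mouse WT-198 (1.60 ± 0.49, adjusted p = 0.106). It was 1.99 ± 0.51 without the untreated library of mouse WT-198 (adjusted p = 0.0546).

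Klf4 was low throughout and had the smallest of the 4 rises in WT. It was at 3.34 and 5.04 CPM in untreated WT cells and at 7.84, 7.22 and 7.61 CPM with LPS, a tight group above both untreated libraries. In KO it was at 8.03 and 5.93 CPM untreated and 10.1, 10.6 and 8.63 CPM with LPS. The WT change was 1.84-fold (0.88 ± 0.22, adjusted p = 0.0319), and it did not pass without the untreated library of mouse WT-198 (0.58 ± 0.24, adjusted p = 0.337) or with voom on the recovered reads (0.85 ± 0.29, adjusted p = 0.107). The KO change was 0.50 ± 0.22 (adjusted p = 0.504).

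Klf3, Klf9, Klf10 and Klf13 did not pass with LPS in either genotype. Klf10, at 36.6 and 62.9 CPM untreated in WT, was at 34.8, 42.2 and 53.7 CPM with LPS, a change of -0.16 (95% confidence interval -0.63 to 0.30). Klf13 was at 136 and 133 CPM untreated and 113, 120 and 124 CPM with LPS in WT, a change of -0.18 (-0.42 to 0.07). Without the untreated library of mouse WT-198 these changes were -0.55 ± 0.20 for Klf10 (adjusted p = 0.232) and -0.16 ± 0.13 for Klf13 (adjusted p = 0.686). In WT the untreated and LPS libraries overlapped for Klf10 and did not for Klf13. In KO it was the reverse, with changes of -0.20 (-0.66 to 0.27) for Klf10 and -0.16 (-0.41 to 0.09) for Klf13. Over all genes these groups did not overlap for 25.5% in WT and 25.8% in KO. Klf3 and Klf9 had changes of 0.82 (-0.31 to 1.94) and 0.80 (-0.08 to 1.67) in WT, which rested on mouse WT-198: Klf3 was at 8.74 CPM in its untreated library and 51.8 CPM in that of mouse WT-112, and Klf9 at 1.298 and 3.28 CPM. Without that library the WT changes were -0.47 ± 0.32 for Klf3 and 0.13 ± 0.42 for Klf9. In KO they were 0.07 and -0.11.

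**Figure D2:**
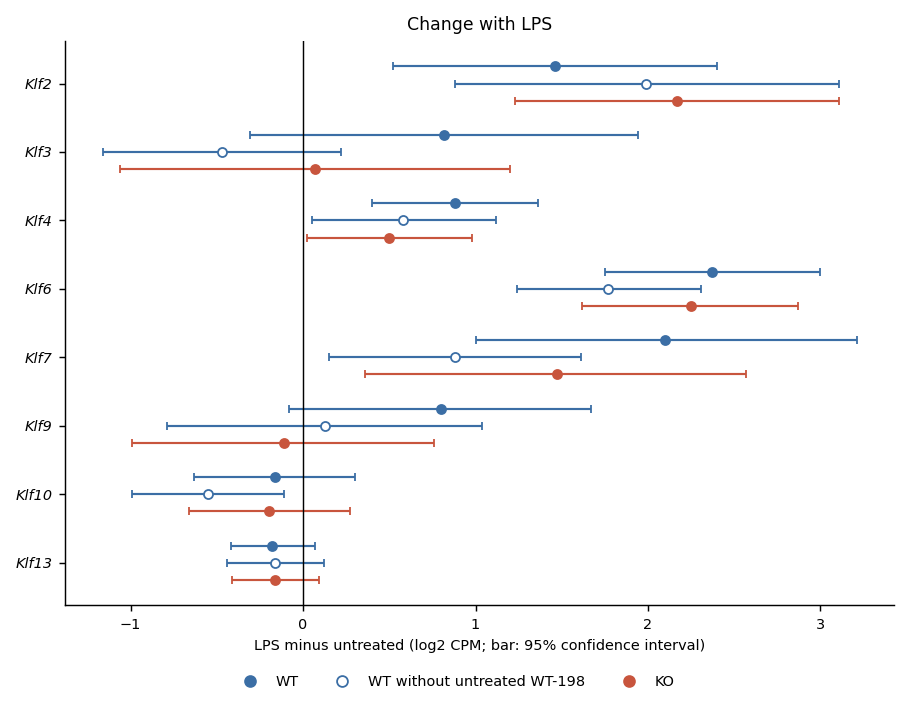
LPS minus untreated for each KLF gene on the log2 CPM scale, with 95% confidence intervals from limma, for WT (filled blue), WT without the untreated library of mouse WT-198 (open blue) and KO (red). Klf6 keeps a change of 1.77 to 2.37 in the 3 estimates, while Klf3, Klf7 and Klf9 shift to lower values in WT once that library is left out.

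The LPS change was not shown to differ between the genotypes for any member. Of the 8, 0 were called, as were 0 of all 9614 genes (0.00%), and 0 of 8 had an unadjusted p under 0.05, against 2.30% of all genes. The estimates of KO minus WT ran from -0.91 (95% confidence interval -2.15 to 0.33) for Klf9 to 0.71 (-0.62 to 2.04) for Klf2, intervals wide enough to hold differences of over 2-fold in either gene. They rest on 2 untreated libraries per genotype, and with the untreated library of mouse WT-112 left out, so that WT was represented by mouse WT-198 alone, Klf3, Klf6, Klf7 and Klf9 were called, 4 of 8 against 48.5% of all genes, a share near that background.

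Dex given with LPS raised 4 members and lowered Klf7 in both genotypes. Klf9, Klf4, Klf2 and Klf13 rose in both genotypes, 4 of 8 against 2.38% of all genes called higher in WT and 2.77% in KO. Klf7 fell in both, and Klf10 fell in KO, so that 1 of 8 fell in WT, against 2.17% of all genes, and 2 of 8 in KO, against 2.55%. These are same-mouse changes, from a limma fit with the mouse as a block, called at an FDR under 0.1 and over 1.3-fold. Klf6 in both genotypes and Klf10 in WT passed the FDR but not the fold: by the FDR alone 7 of 8 members were called in WT, against 12.5% of all genes, and 7 of 8 in KO, against 17.7%. The median change of the 8 was 0.32 in WT and 0.27 in KO, beside -0.01 and -0.00 over all genes. The LPS and LPS+Dex groups did not overlap for 4 of 8 members in WT, against 5.97% of all genes, and for 5 of 8 in KO, against 9.67%. As with LPS, the 8 were chosen with earlier results of these data known, so these shares do not test the family. Of the other 2 Klf genes of the table, Klf11 fell with Dex in both genotypes, and Klf16 was called in neither.

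Klf9, the member known as a glucocorticoid target, had the largest rise. In WT it was at 4.37, 4.28 and 2.46 CPM with LPS and 14.7, 16.01 and 9.69 CPM with LPS+Dex (mice WT-187, WT-198 and WT-112). In KO it was at 3.49, 2.72 and 2.13 CPM and then 19.3, 14.1 and 13.0 CPM (mice KO-186, KO-185 and KO-127). The groups were far apart in both genotypes. The rise was 3.68-fold in WT (1.88 ± 0.09, adjusted p = 1.78e-08) and 5.59-fold in KO (2.48 ± 0.09, adjusted p = 9.80e-10), rank 12 and rank 7 from the top of 9614 genes. Against the untreated library of the same mouse, Klf9 with LPS+Dex was higher by 3.63 and 1.56 on the log2 scale in mice WT-198 and WT-112 and by 1.92 and 2.48 in mice KO-185 and KO-127.

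Klf4 nearly tripled. It went from 7.84, 7.22 and 7.61 CPM to 20.1, 19.8 and 23.9 CPM in WT and from 10.1, 10.6 and 8.63 CPM to 24.3, 24.1 and 37.3 CPM in KO, with no overlap. The rise was 2.81-fold in WT (1.49 ± 0.14, adjusted p = 7.14e-06) and 2.86-fold in KO (1.52 ± 0.14, adjusted p = 5.22e-06). The rise was largest in mouse KO-127, at 2.11 on the log2 scale, and the other 5 mice lay between 1.19 and 1.65. Since Klf4 was also higher with LPS than without it, its level with LPS+Dex was 1.59 to 2.65 above untreated on the log2 scale in the 4 mice with an untreated library.

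Klf2 and Klf13 rose by less. Klf2 went from 48.7, 23.4 and 20.4 CPM to 71.8, 38.8 and 30.6 CPM in WT and from 52.5, 42.2 and 31.9 CPM to 67.5, 61.1 and 41.0 CPM in KO. The mice differed more from each other than LPS from LPS+Dex, so the groups overlapped, but each of the 6 mice rose, by 0.36 to 0.73. The rise was 1.54-fold in WT (0.63 ± 0.05, adjusted p = 2.02e-06) and 1.34-fold in KO (0.42 ± 0.05, adjusted p = 6.25e-05). The KO rise fell under 1.3-fold with the LPS library of mouse KO-185 left out (0.36 ± 0.06, adjusted p = 0.00105). Klf13 went from 113, 120 and 124 CPM to 160, 188 and 169 CPM in WT and from 132, 145 and 118 CPM to 210, 214 and 195 CPM in KO, with no overlap. The rise was 1.44-fold in WT (0.53 ± 0.04, adjusted p = 2.62e-06) and 1.57-fold in KO (0.65 ± 0.04, adjusted p = 3.97e-07). Klf13 was lower with LPS than without it in each of the 4 mice with both libraries, by 0.09 to 0.25, and with LPS+Dex it was above untreated in each of them, by 0.34 to 0.48.

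Klf7 and Klf6, both called higher with LPS in WT with all libraries in the fit, were lower with Dex. Klf7 went from 37.8, 48.0 and 54.4 CPM to 25.8, 32.3 and 32.2 CPM in WT and from 40.4, 52.4 and 69.3 CPM to 26.6, 33.2 and 46.2 CPM in KO. It fell in each of the 6 mice, by 0.55 to 0.76 on the log2 scale. The fitted change was -0.63 ± 0.05 in WT (adjusted p = 1.39e-06) and -0.62 ± 0.05 in KO (adjusted p = 1.38e-06). It stayed above the untreated level of the same mouse, by 0.35 in mouse WT-112 and 1.02 to 1.05 in the KO mice, and by 2.81 in mouse WT-198. Klf6 went from 1105, 1148 and 1598 CPM to 920, 887 and 1312 CPM in WT and from 1275, 1330 and 1575 CPM to 1078, 1132 and 1242 CPM in KO. Its change was -0.31 ± 0.04 in WT (adjusted p = 9.81e-05) and -0.27 ± 0.04 in KO (adjusted p = 2.44e-04), below in 6 of 6 mice but 1.24-fold and 1.21-fold only. Klf6 with LPS+Dex therefore remained 1.83 to 2.46 above the untreated library of the same mouse.

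Of the remaining repressors, Klf10 was lower with Dex in 6 of 6 mice. It went from 34.8, 42.2 and 53.7 CPM to 29.4, 37.2 and 37.8 CPM in WT and from 57.9, 60.8 and 59.4 CPM to 44.6, 49.2 and 41.8 CPM in KO, and only the KO groups were apart. The change was -0.40 ± 0.06 in KO (adjusted p = 4.82e-04), and it came under 1.3-fold without the LPS library of mouse KO-127 (-0.34 ± 0.07, adjusted p = 0.00513). In WT it was -0.31 ± 0.06 (adjusted p = 0.00401), under 1.3-fold. Klf3 had changes of 0.10 (95% confidence interval -0.02 to 0.23) in WT and 0.13 (0.00 to 0.25) in KO and passed in neither.

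**Figure D3:**
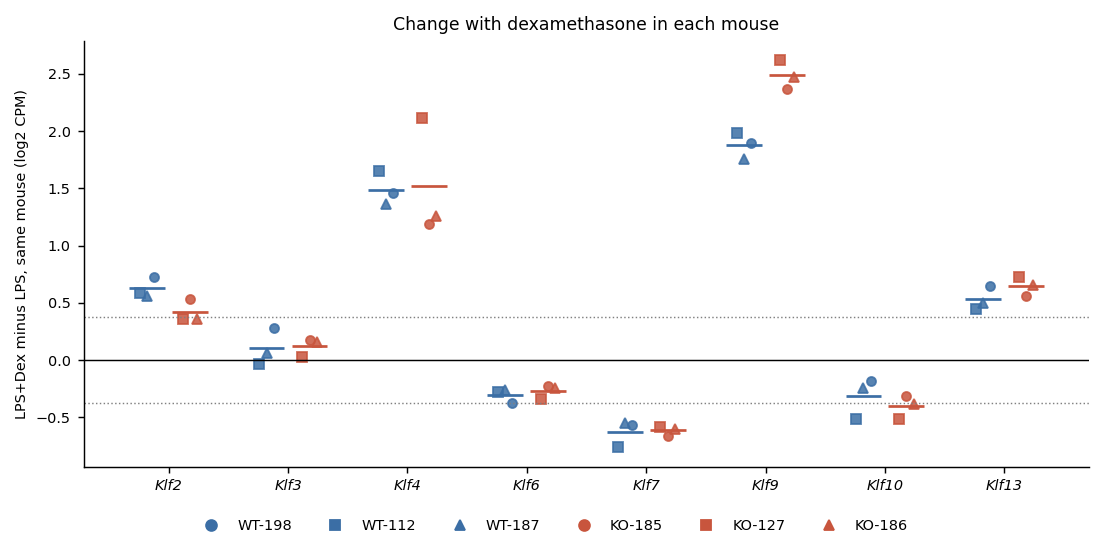
LPS+Dex minus LPS in the same mouse on the log2 CPM scale for each KLF gene, 1 point per mouse, blue for WT and red for KO, with the mean of 3 mice as a bar and dotted lines at 1.3-fold. Klf9, Klf4, Klf2 and Klf13 lie above 0 and Klf6, Klf7 and Klf10 below 0 in all 6 mice, and the 3 KO points of Klf9 (2.37 to 2.62) lie above the 3 WT points (1.76 to 1.98). The shares of all genes with 1 sign in all 6 mice, or with the genotypes apart in this way, were not computed.

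The Dex change differed most between the genotypes for Klf9, though not past the threshold. The rise was larger in KO by 0.61 ± 0.12 on the log2 scale (unadjusted p = 3.19e-04, adjusted p = 0.224), the fifth-highest value of 9614 genes. Each KO mouse rose by more than each WT mouse, which describes the same values. The share of all genes for which that held was not computed. At the LPS+Dex level itself the genotypes overlapped, from 9.69 to 16.01 CPM in WT and 13.0 to 19.3 CPM in KO. At the LPS level Klf9 was at 2.46 to 4.37 CPM in WT and 2.13 to 3.49 CPM in KO. Klf2 leaned the other way, with a smaller rise in KO by 0.21 ± 0.07 (difference -0.21, unadjusted p = 0.0127, adjusted p = 0.597). So 2 of 8 members had an unadjusted p under 0.05, against 6.96% of all genes, and 0 of 8 were called, against 2 of 9614 genes (0.0208%). For Klf4 the difference was 0.03 (95% confidence interval -0.39 to 0.45), for Klf6 0.03 (-0.08 to 0.15) and for Klf7 0.01 (-0.14 to 0.16).

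KO and WT macrophages under the same treatment did not differ past the threshold for any KLF gene. At an FDR under 0.05 and over 1.5-fold in limma, 0 of 8 members and 0 of 9614 genes (0.00%) were called in untreated cells, with LPS and with LPS+Dex. This includes Nelfb itself, whose adjusted p was 0.889, 0.105 and 0.0889, so 0 calls do not show that no gene differed. The study, with its own edgeR analysis, did report genes that differed between WT and KO with LPS+Dex at that FDR and fold. At an unadjusted p under 0.05 there were 0 of 8 members in untreated cells (0.385% of all genes), 2 of 8 with LPS (8.44%) and 2 of 8 with LPS+Dex (11.3%). Over all genes, voom on the recovered reads called 0, 1 and 3 genes where limma called 0, with 0 members among them. With the untreated library of mouse WT-112 left out, Klf2, Klf3, Klf6, Klf7 and Klf10 were called in untreated cells, 5 of 8 against 40.6% of all genes. Klf10, Klf4 and Klf13 were the members with an unadjusted p under 0.05. Klf10 was higher in KO with LPS by 0.47 ± 0.16 (adjusted p = 0.417) and with LPS+Dex by 0.38 ± 0.13 (adjusted p = 0.309), and its groups did not overlap in any treatment. Klf4 was higher in KO with LPS by 0.37 ± 0.13 (adjusted p = 0.481) and Klf13 with LPS+Dex by 0.26 ± 0.09 (adjusted p = 0.360). Klf4 groups did not overlap in any treatment either. These were 2 of 8 members with KO above WT in each treatment, against 1.88% of all genes, and the treatments share their mice. In either direction the genotypes did not overlap for 3 of 8 members in untreated cells, against 29.4% of all genes, 2 of 8 with LPS (13.7%) and 3 of 8 with LPS+Dex (17.8%). The untreated differences of Klf3, Klf7 and Klf9 were 1.04 ± 0.86, 0.83 ± 0.82 and 0.51 ± 0.61, and without the untreated library of mouse WT-198 they were -0.25 ± 0.25, -0.40 ± 0.24 and -0.16 ± 0.41.

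Levels of other genes are set beside these. With LPS, S100a8 was at 5.46 to 20.5 CPM in WT and 13.9 to 36.3 CPM in KO, and Lyz2 did not overlap between the genotypes. Immediate-early and stress genes summed to 2742 to 4095 CPM in WT and 4591 to 5892 CPM in KO with LPS. In untreated cells the sums were 519 to 582 CPM in WT and 591 to 675 CPM in KO. With LPS+Dex they were 3248 to 4367 CPM in WT and 4744 to 6288 CPM in KO. The part of all these genes in the KLF differences was not tested.

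**Figure D4:**
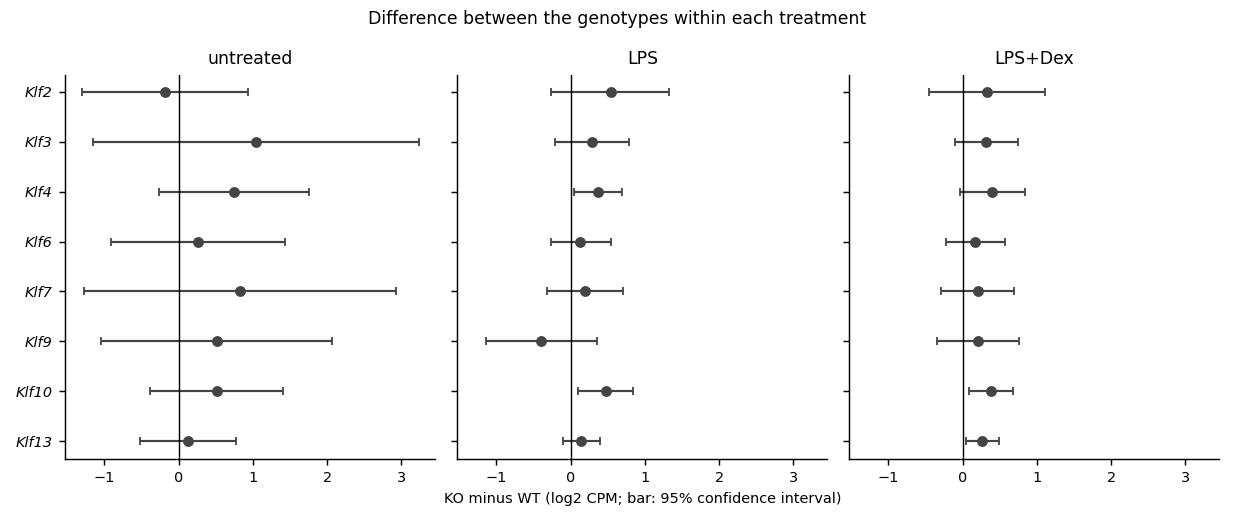
KO minus WT for each KLF gene on the log2 CPM scale, with 95% confidence intervals from limma, in untreated cells (2 against 2 libraries), with LPS and with LPS+Dex (3 against 3 each). All intervals cross 0 in untreated cells, and those of Klf4 and Klf10 with LPS and of Klf10 and Klf13 with LPS+Dex lie above 0, none past the FDR.

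Pearson correlations between the members across the 16 libraries ran from -0.54 to 0.90. Klf4 and Klf9 had a correlation of 0.90 on the log2 scale, Klf9 and Klf13 of 0.81, Klf4 and Klf13 of 0.80, and Klf6 and Klf7 of 0.88. Klf3 and Klf7 were at 0.79, Klf2 and Klf6 at 0.72, Klf2 and Klf4 at 0.70 and Klf4 and Klf6 at 0.58. Klf10 ran against Klf2 (-0.54) and Klf9 (-0.50). These correlations describe 16 libraries that share mice and treatments. By the same measure, the genes most like each member among 9609 were Csrnp1 (0.993), Gm26667 and Nfkbiz for Klf6, Pip5k1a (0.974), Foxn2 and Nfkb1 for Klf7, Ssh2 (0.967), Aph1b and Gab3 for Klf4, Zfp658 (0.952), Wdr3 and Il15ra for Klf9, Ppp1r3b (0.932), Tsc22d3 and Pdcd4 for Klf13, Gtf2ird2 (0.918), Glipr1 and Ier2 for Klf2, Dcaf5 (0.937), Pdp2 and Lfng for Klf10, and Acap2 (0.979), Usp8 and Bmp2k for Klf3. All of these profiles include the untreated library of mouse WT-198. It held the lowest of the 16 values of Klf3 (8.74 CPM), Klf4 (3.34 CPM), Klf6 (161 CPM), Klf7 (4.61 CPM) and Klf9 (1.298 CPM). The correlations were not computed without it.

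Calls among relatives, partners and upstream genes of the KLF proteins are set beside the shares over all 9614 genes. With LPS these were 6.01% higher and 3.14% lower in WT, and 3.08% and 1.24% in KO. With Dex they were 2.38% and 2.17% in WT, and 2.77% and 2.55% in KO. In KO against WT 0.00% were called under each treatment. At these shares lists this short would hold few calls in any case. The same shares stand beside the lists that follow. Of the other 9 KLF genes listed, 2 were measured, and 1 of them, Klf11, a SIN3A-binding relative of Klf10, fell with Dex in WT (-0.40 ± 0.08, adjusted p = 0.00621) and KO (-0.55 ± 0.08, adjusted p = 4.60e-04) and with LPS in KO (-0.64 ± 0.19, adjusted p = 0.0977). Of 9 SP genes, which bind the same GC boxes, 4 were measured and 0 were called in any comparison. Of 12 corepressors, coactivators and ubiquitin ligases known to work with KLF proteins, all 12 were measured and 0 were called. In the MEK5-ERK5-MEF2 pathway, which acts upstream of Klf2 and Klf4, 7 of 7 genes were measured and 1 was called: the kinase gene Map3k2, which rose with Dex in KO (0.43 ± 0.04, adjusted p = 1.39e-05).

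Of 7 known KLF targets, 6 were measured. With LPS in WT, 1 rose (the cell cycle inhibitor Cdkn1a, 2.80-fold) and 1 fell (Smad7, an inhibitor of TGF-beta signaling, -1.08 ± 0.21), both also without the untreated library of mouse WT-198 (2.75-fold and -0.99 ± 0.26), and in KO Cdkn1a rose 3.81-fold. With Dex in WT, Thbd, the anticoagulant receptor thrombomodulin, rose by 0.74 ± 0.08 and S1pr1, a sphingosine phosphate receptor, fell by 0.57 on the log2 scale. Both are known to be induced by Klf2, and here they went in opposite directions. In KO 2 of 6 rose with Dex, Thbd among them, and 2 fell (S1pr1 and Smad7).

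Immediate-early and stress genes, which also respond to handling, were followed beside Klf2, Klf4, Klf6 and Klf10. With LPS, 10 of 11 rose in each genotype, with a median change of 2.90 in WT and 3.92 in KO, led by Egr1 and Dusp1 (10 of 11 and a median of 3.30 in WT without the untreated library of mouse WT-198), and their summed level went from 519 to 675 CPM in untreated cells to 2742 to 5892 CPM. With Dex in WT 3 of 11 rose and 6 fell, led by Fosb and Hspa1a, and in KO 2 rose and 5 fell. Of 6 genes listed as glucocorticoid-induced 5 were measured, and with Dex 3 of the 5 rose in both genotypes (Tsc22d3, Fkbp5 and Per1). Errfi1 fell (-0.64 ± 0.05 in WT), and the study itself treats Errfi1 as a gene that LPS induces and Dex represses. Per1 rose 4.43-fold in WT and 4.62-fold in KO, beside the 3.68-fold and 5.59-fold of Klf9. All of these lists share their samples with the KLF comparisons, and their calls are adjusted over the same 9614 genes.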

How the data were processed

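BMDM RNA was polyA-enriched and sequenced as 50 bp paired reads. Per the labels and the study's methods, the authors used CLC Bio Genomic Workbench to align to mm10, took reads unique to exons, scaled them with edgeR and deposited log2 CPM per library for 9614 genes. The submitters' processing notes also name CASAVA 1.8 and FastQC. The deposited p-value columns of the authors' own comparisons were not used. The members and gene lists were chosen with earlier results of these data known.

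The test planned for counts was replaced by limma 3.58.1 (lmFit, eBayes with trend, R 4.3.3), since the deposited values are log2. P-values were adjusted by Benjamini-Hochberg over all genes, with the thresholds given beside each comparison. Named by rule were all 8 members, Nelfb, Tnf and Tsc22d3, the 3 genes most correlated with each member, and at most 4 called genes per list. Lyz2 and S100a8 were named after their values were seen. The scripts were tested on simulated data. Same-numbered libraries come from the same mouse. Their deviations from the group means correlated by 0.78 to 0.94 between LPS and LPS+Dex and by 0.19 to 0.82 between untreated and LPS. Gene models came from GENCODE vM21, promoters from RefSeq. Folds are on the deposited log2 scale.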

Additional observations from a re-analysis of the deposited data

How the results depend on the processing

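Each result was recomputed with a replicate block or without it, another pseudocount, a filter at a mean log2 CPM above 1, median centering, voom on recovered reads, other thresholds and each library left out. Of 936 gene values, 868 kept their direction and call, 15 lost the call, 15 gained it and 38 changed sign.

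Without the replicate block, the members called with Dex went from 5 to 3 in WT and from 6 to 3 in KO, with Klf9, Klf4 and Klf13 left in both. Over all genes the calls went from 438 to 150 and from 511 to 178. With the replicate block, LPS calls over all genes went from 880 to 2008 in WT and the genotype difference in the LPS change of Klf13 went from 0.02 to -0.03. At an unadjusted p of 0.05, 2 members (Klf2 and Klf9) differed between genotypes in the Dex change. Leaving out single libraries, the members called ranged from 2 to 5 for LPS in WT, 0 to 4 for the genotype difference in it and 0 to 5 for untreated KO against WT. Over all genes the calls ran from 415 to 4478, 0 to 4666 and 0 to 3905, and the highest counts came from leaving out the untreated library of mouse WT-112. The cause was not tested. Over all genes, voom called 742 and 436 for LPS and 434 and 517 for Dex (WT and KO), against 880, 415, 438 and 511. KO against WT went from 0 to 1, 14 and 11 genes (untreated, LPS, LPS+Dex) in a fit of all 16 libraries and to 3, 12 and 48 with a block of mouse pairs, and the Dex difference between genotypes from 2 to 0 without the replicate block, with 0 members among any of these. The block of mouse pairs joined WT-112 with KO-127, which share a tag in some labels, WT-187 with KO-186, whose tags are of 1 kind but differ, and the remaining mice. What the tags mean is not stated, so these pairs are an assumption.

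The values that changed sign with a library left out ranged as follows. The LPS change in WT ran from -0.47 to 2.10 for Klf3 and -0.55 to 0.23 for Klf10, and that in KO from -0.18 to 0.33 for Klf3 and -0.45 to 0.22 for Klf9. The genotype difference in the LPS change ran from -2.03 to 0.54 for Klf3, -0.73 to 0.47 for Klf6, -1.86 to 0.59 for Klf7, -0.43 to 0.35 for Klf10 and -0.05 to 0.10 for Klf13. That in the Dex change ran from -0.04 to 0.11 for Klf3, -0.27 to 0.20 for Klf4 and -0.05 to 0.05 for Klf7. KO minus WT in untreated cells ran from -0.71 to 0.36 for Klf2, -0.25 to 2.32 for Klf3, -0.34 to 0.86 for Klf6, -0.40 to 2.05 for Klf7 and -0.16 to 1.18 for Klf9. KO minus WT ran from -0.01 to 0.38 with LPS for Klf7, and with LPS+Dex from -0.01 to 0.39 for Klf7 and -0.01 to 0.35 for Klf9.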
